A study of Mus musculus with 4 samples.

Results

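The RNA levels of 10 genes for epithelial and neuronal splicing regulators were compared in cranial neural tubes of mouse embryos with and without a Wnt1-Cre deletion of the Hippo pathway kinases Lats1 and Lats2. The genes are Esrp1, Esrp2, Rbfox1, Rbfox2, Rbfox3, Nova1, Nova2, Ptbp1, Ptbp2 and Srrm4. They were chosen by name as regulators of epithelial or neuronal splicing, not all of them restricted to these tissues. Each was matched by its symbol to 1 of the 54532 Ensembl gene IDs in the deposited count table. The DCKO group held 2 embryos at embryonic day 10.5 whose Lats1 alleles (Lats1 flox/flox) and Lats2 alleles (Lats2 flox/flox) were both floxed and which carried E2f1 Tg(Wnt1-cre)2Sor/+. The Control group held 2 embryos of the same stage with no E2f1 Tg(Wnt1-cre)2Sor/+. The labels do not say whether Control embryos carried floxed alleles. Wnt1 drives Cre in the dorsal neural tube and the neural crest that leaves it, so a dissected neural tube also holds cells in which the alleles were never deleted. The transgene itself was carried by the DCKO embryos alone, so its presence and the loss of Lats1 and Lats2 cannot be told apart. Each library came from a separate embryo.

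Alternative splicing joins different exons of a gene in different cell types, and RNA-binding proteins that are abundant in a single tissue direct much of it. ESRP1 and ESRP2 switch exons to their epithelial forms, as in the receptor gene Fgfr2, and are lost when epithelial cells become mesenchymal. In neurons, SRRM4 brings in very short exons, NOVA proteins bind clusters of YCAY, and RBFOX proteins bind GCAUG. PTBP1 is common in non-neuronal and progenitor cells and represses neuronal exons, while its paralog PTBP2 takes over in young neurons.

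Of the 10 genes, 1 rose in DCKO neural tubes and 3 fell. Esrp1 rose 10.96-fold. Srrm4 was 5.85-fold lower, Nova2 5.12-fold lower and Nova1 3.38-fold lower in DCKO than in Control. Esrp2, Rbfox1, Rbfox2, Rbfox3, Ptbp1 and Ptbp2 did not pass the test. All 10 passed the filter on low counts and were tested with edgeR, as were 19207 genes in all, with an adjusted p under 0.05 as the threshold. Of all tested genes 17% were called, 8.93% as higher in DCKO and 8.11% as lower. An unadjusted edgeR p under 0.05 was far more common, at 6896 of the 19207 genes. The median log2 fold change was -0.29 over the 10 genes and 0.025 over all tested genes. Both DCKO libraries lay above both Control libraries for 3 of the 10 genes and below both for 4, against 33.6% and 32.9% of all tested genes.

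Totals ran from 41798361 to 55137810 counts per library. RNA of the ribosomal cluster took 24.7% and 30.3% of the counts in DCKO, against 13.2% and 12.4% in Control. The X-inactivation transcript Xist had 8 and 22 counts in DCKO, against 10837 and 7786 in Control, and the labels give no sex, so sex and genotype cannot be told apart in these embryos. As a check of the targeted genes, Lats1 had 30.0 and 29.6 CPM (counts scaled to library depth by TMM) in DCKO and 44.2 and 65.5 CPM in Control, with a log2 fold change of -0.88 and an adjusted p of 0.0538 by edgeR. It was called lower under 6 of the 16 alternatives, with adjusted p-values from 0.00443 to 0.280 over all 16. Lats2 had 21.2 and 35.3 CPM in DCKO and 26.7 and 13.2 CPM in Control (adjusted p = 0.426 by edgeR). Gene totals also count reads outside the floxed exons, and undeleted cells are in the same tissue. Neural progenitor markers were present in all 4 libraries, as the tissue label implies: Sox2 had 74.8 and 78.9 CPM in DCKO and 141 and 144 CPM in Control. Markers of cranial mesenchyme were higher in DCKO for 7 of 8 genes, of endothelium for 5 of 8 and of pericytes and mural cells for 5 of 7. By edgeR these counts were 0, 0 and 3 without Control 1, and 0, 0 and 1 without Control 2. The median log2 fold changes of the 3 lists were 1.91, 1.73 and 2.38 with all libraries. They were 1.88, 1.77 and 2.19 without Control 1 and 1.85, 1.67 and 2.71 without Control 2. Erythroid markers were lower for 7 of 7, but for 4 without Control 1 and 2 without Control 2. Of 6 macrophage markers, 0 were called by edgeR, DESeq2 or limma-voom, with 0 at an unadjusted edgeR p under 0.05. Without DCKO 2, edgeR called 3 of them higher, with a median log2 fold change of 1.33, and without DCKO 1 it called 0 and the median was -0.59. In bulk tissue, fewer cells of a type and less RNA per cell cannot be told apart.

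**Figure D1:**
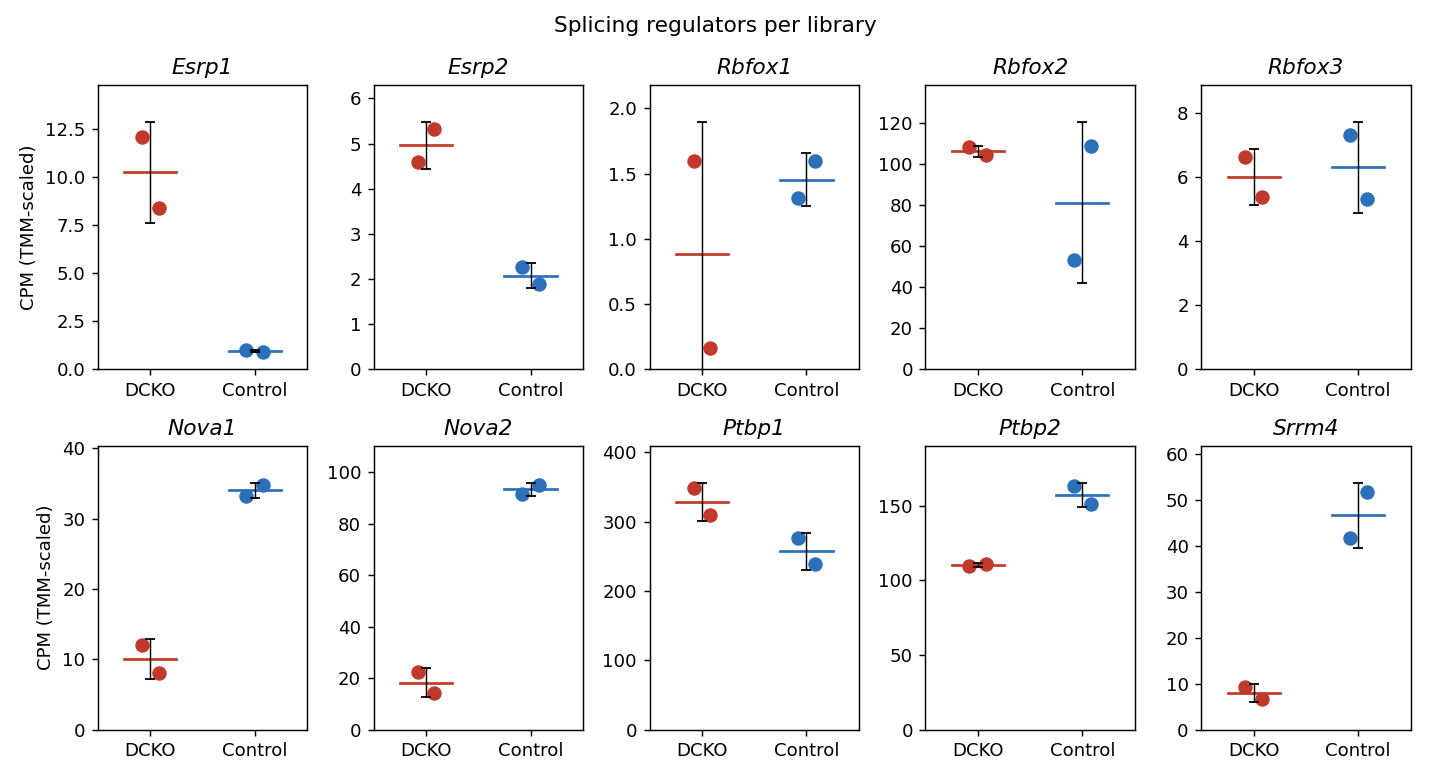
TMM-scaled counts (CPM, vertical axes from 0, each gene on its own scale) of the 10 genes in the 2 DCKO libraries (red) and the 2 Control libraries (blue). Horizontal lines are group means and bars are 1 SD (n = 2), cut at 0 for Rbfox1. Esrp1, Esrp2 and Ptbp1 lie higher in both DCKO libraries, Nova1, Nova2, Ptbp2 and Srrm4 lie lower in both, and the groups overlap for the 3 Rbfox genes.

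The epithelial pair was examined first. Esrp1 (ENSMUSG00000040728, GRCm38 chr4:11331933-11386783, minus strand) encodes the main epithelial splicing regulator. It had 12.1 and 8.38 CPM in DCKO, from 484 and 310 counts, against 0.974 and 0.889 CPM in Control, from 61 and 45 counts. Both DCKO libraries stood far above both Control libraries, which were close to each other. The log2 fold change, DCKO over Control, was 3.45 (SE 0.34, adjusted p = 0.00806 by edgeR). Its deposited abundance per transcript length was 4.19 and 3.85 TPM in DCKO, against 0.467 and 0.348 TPM in Control. The call was lost when Control 2 was left out, with a log2 fold change of 3.36 and an edgeR adjusted p of 0.0553, within a range of 5.97e-16 to 0.0927 over the 16 alternatives. Without Control 2 only 1.11% of all genes were called in either direction, and without Control 1 only 1.87%.

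Esrp2 (ENSMUSG00000084128, chr8:106130319-106136974, minus strand) encodes the paralog with overlapping targets. It had 4.60 and 5.33 CPM in DCKO, against 2.27 and 1.88 CPM in Control. The groups did not overlap, but the log2 fold change of 1.26 (SE 0.32) had an adjusted p of 0.0522 by edgeR and was not called. Under 5 of the 16 alternatives it passed, with adjusted p-values from 0.0145 to 0.297 over all 16. It passed under DESeq2, which called 7.72% of all genes higher, limma-voom (9.43%), edgeR with upper-quartile factors (9.52%), edgeR without DCKO 1 (10.9%) and in the authors' deposited table. In the authors' deposited table, the log2 fold change was 3.51 for Esrp1 and 1.32 for Esrp2, with false discovery rates of 2.77e-11 and 0.0233. Of the genes in the authors' deposited table, 15.6% had a rate under 0.05 and were higher in DCKO, and 13.2% were lower.

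The balance within the pair also differed. The ratio of Esrp1 to Esrp2 TPM was 1.43 and 1.36 in DCKO, against 0.392 and 0.431 in Control. Esrp1 was thus the more abundant of the pair per transcript length in both DCKO libraries and the less abundant in both Control libraries. On the log2 scale the count ratio was 2.17 higher in DCKO than in Control. The exact two-sided permutation p was 0.333, the smallest that 2 libraries against 2 can give.

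Surface ectoderm, the embryonic skin epithelium next to the neural tube, expresses both Esrp genes. Of 11 surface ectoderm markers, 9 rose in DCKO, and their summed level was 300 and 304 CPM in DCKO, against 14.4 and 16.1 CPM in Control. Trp63, the transcription factor that specifies stratified epithelium, had 17.5 and 17.6 CPM in DCKO and 0.0319 and 0.0395 CPM in Control, the Control values being 2 counts each. The simple epithelial keratins Krt8 and Krt18 rose by 4.03 and 4.63 on the log2 scale (adjusted p = 0.00602 and 0.00583 by edgeR). The basal keratins Krt5 and Krt14 were at 0 in both Control libraries and were not tested. Their counts in DCKO were 36 and 0 for Krt5 and 0 and 13 for Krt14. Per 1000 CPM of the summed markers, Esrp1 had 40.3 and 27.6 CPM in DCKO and 67.6 and 55.4 CPM in Control. For Esrp2 the same measure was 15.3 and 17.5 CPM in DCKO and 157 and 117 CPM in Control. Both genes therefore differed less between groups than the summed markers did. Single tested markers had log2 fold changes from 2.35 to 8.85 by edgeR, a range that holds the 3.45 of Esrp1. The part of surface ectoderm cells in the Esrp1 result was not tested.

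Among the neuronal regulators, 3 genes fell. Srrm4 (ENSMUSG00000063919, chr5:116439275-116591817, minus strand) encodes the protein also called nSR100, which promotes neuronal microexons. It had 9.32 and 6.63 CPM in DCKO, from 373 and 245 counts, against 41.6 and 51.7 CPM in Control, from 2609 and 2617 counts. The groups were far apart relative to the spread within each. The log2 fold change was -2.55 (SE 0.25, adjusted p = 0.00799 by edgeR). In deposited TPM it had 1.90 and 1.53 in DCKO, against 10.99 and 11.2 in Control.

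Nova2 (ENSMUSG00000030411, chr7:18925888-18965319, plus strand) encodes the NOVA protein that prevails in the cortex. It had 22.3 and 14.2 CPM in DCKO, against 91.6 and 95.2 CPM in Control. Its log2 fold change was -2.36 (SE 0.26, adjusted p = 0.00930 by edgeR). Of the Nova2 exon bases, 2652 (31.7%) are shared with the noncoding gene Gm26821 on the opposite strand. That gene had 187 and 132 counts in DCKO, against 2208 and 1918 in Control, and fell by 3.15 on the log2 scale (SE 0.23, adjusted p = 0.00602 by edgeR). Whether strand was used in counting is not stated, so the values of both genes are uncertain in how reads over the shared bases were assigned.

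Nova1 (ENSMUSG00000021047, chr12:46694517-46818929, minus strand) encodes the NOVA protein that prevails in hindbrain and spinal cord. It had 12.1 and 8.06 CPM in DCKO, against 33.3 and 34.8 CPM in Control. Both DCKO libraries lay below both Control libraries. The fitted change was -1.76 on the log2 scale (SE 0.25, adjusted p = 0.0152 by edgeR). The Nova1 call was lost without Control 1 (-1.79, adjusted p = 0.0774 by edgeR) and without Control 2 (-1.75, adjusted p = 0.0847), within a range of 2.66e-08 to 0.105 over the 16 alternatives. In the authors' deposited table the log2 fold changes were -2.49 for Srrm4, -2.30 for Nova2 and -1.70 for Nova1. Srrm4 and Nova2 were called with each library left out in turn. The false discovery rates of the 3 genes in the authors' deposited table were 6.74e-14, 1.26e-11 and 1.91e-06.

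The ratio of Nova1 to Nova2 TPM was 1.25 and 1.40 in DCKO, against 0.523 and 0.616 in Control. Per transcript length, Nova1 was the more abundant paralog in DCKO and the less abundant in Control. From counts per kilobase of annotated exon, Nova1 was the less abundant in all 4 libraries, with ratios of 0.519 and 0.544 in DCKO and 0.348 and 0.350 in Control, so which paralog led in DCKO depended on the length used. The log2 count ratio was 0.61 higher in DCKO, with an exact two-sided permutation p of 0.333.

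**Figure D2:**
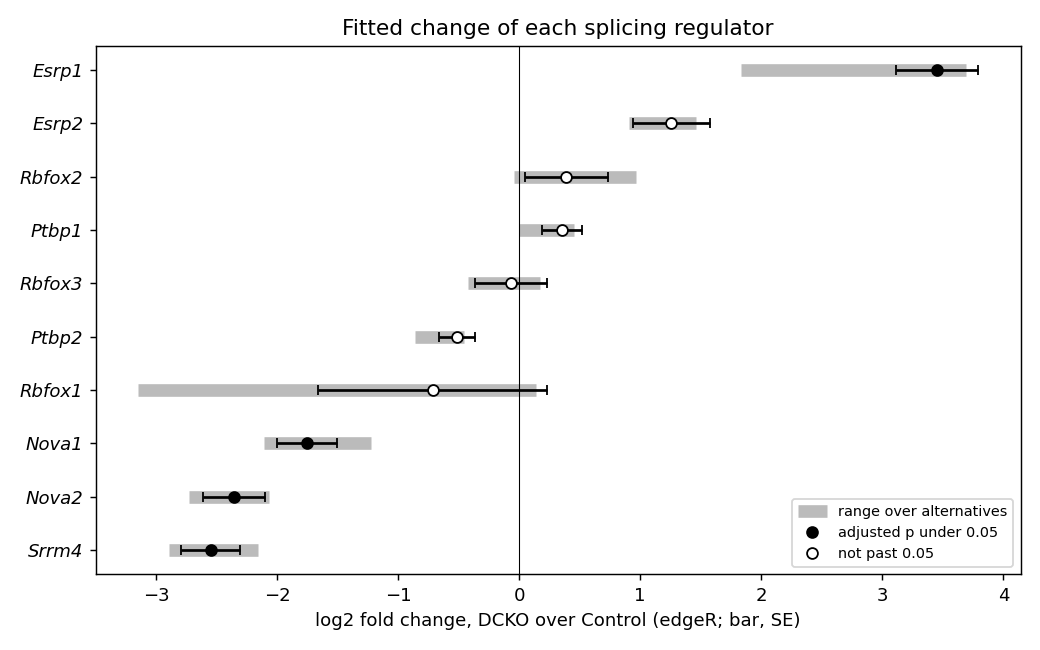
Log2 fold change of DCKO over Control for each of the 10 genes (horizontal axis, edgeR). Points are the fitted values, filled where the adjusted p was under 0.05, thin bars are 1 SE and gray bands span the 16 alternatives (13 for Rbfox1). Esrp1 stands at 3.45 and Srrm4, Nova2 and Nova1 at -2.55, -2.36 and -1.76, and the band of Rbfox1 is the widest.

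Neural progenitor markers were also lower in DCKO, while neuron markers were mixed, with a negative fitted change for 8 and a positive one for 2. Of 9 neural progenitor markers, 7 fell, and their sum was 550 and 430 CPM in DCKO, against 1814 and 2045 CPM in Control. Nes, the intermediate filament of progenitors, fell by 1.93 on the log2 scale (adjusted p = 0.00806 by edgeR). Of 10 neuron markers, 2 fell and 1 rose, with a sum of 998 and 393 CPM in DCKO, against 1349 and 1674 CPM in Control. DESeq2 called 4 neuron markers lower and 1 higher (8.71% and 7.72% of all genes), and limma-voom 2 lower and 1 higher (9.01% and 9.43%). Filtered log2(TPM + 1) gave 7 lower and 0 higher (11.5% and 6.81%). Fewer progenitor markers, and no neuron marker, were called by edgeR without Control 1 or without Control 2, settings that called few genes of any kind. The median log2 fold change of the neuron markers was -1.22 with all libraries, -1.30 without Control 1 and -1.02 without Control 2. It was -1.98 without DCKO 1 and -0.58 without DCKO 2. No progenitor or neuron marker was at 0 in both libraries of a group. The migration gene Dcx was called lower (-1.35, adjusted p = 0.0366 by edgeR), while Tubb3, the neuronal tubulin, had 297 and 135 CPM in DCKO and 451 and 650 CPM in Control (adjusted p = 0.0749 by edgeR).

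Set against the summed neuron markers, Srrm4 had 9.34 and 16.8 CPM per 1000 in DCKO, against 30.9 and 30.9 in Control. Nova2 had 22.3 and 36.0 in DCKO, against 67.9 and 56.8 in Control. On this scale both genes stayed lower in both DCKO libraries, while Nova1, with 12.1 and 20.5 in DCKO and 24.7 and 20.8 in Control, came close to overlap. Against progenitor markers the differences were smaller. Srrm4 had 16.9 and 15.4 CPM per 1000 in DCKO and 23.0 and 25.3 in Control. Nova2 had 40.5 and 33.0 in DCKO and 50.5 and 46.5 in Control. Nova1 had 21.97 and 18.8 in DCKO and 18.3 and 17.02 in Control, which turned its order round. The part of fewer progenitors or neurons in these results was not tested.

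**Figure D3:**
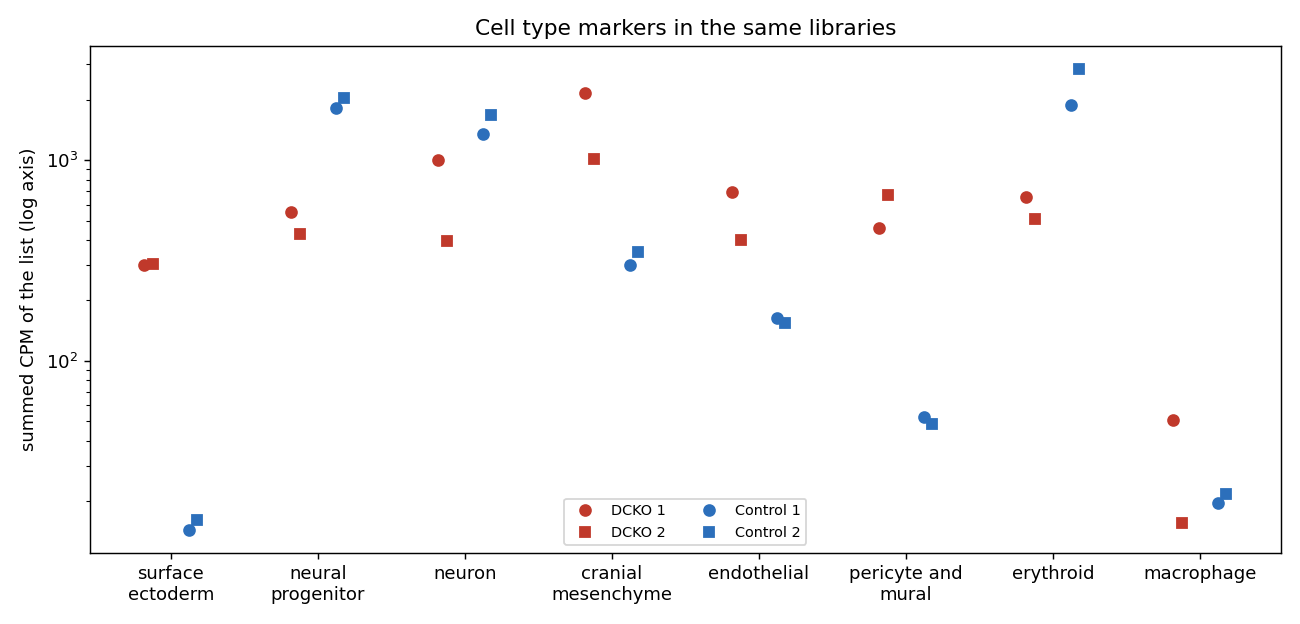
Summed TMM-scaled CPM of each cell type marker list (log vertical axis) in DCKO 1 and DCKO 2 (red) and Control 1 and Control 2 (blue). The surface ectoderm sum is 300 and 304 CPM in DCKO against 14.4 and 16.1 in Control, the progenitor sum lies lower in both DCKO libraries, and DCKO 2 has the lowest neuron sum.

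RefSeq promoter windows (GRCm38.p6, 250 bases before to 50 after the gene's start) of the 3 genes that fell are shown in full, because they moved together. Capitals mark the letters of the TEAD motif GGAATG, which reads CATTCC on the other strand, and letters in lower case are the rest of the window. Srrm4 lies at chr5:116591768-116592067 (minus strand), Nova2 at chr7:18925638-18925937 (plus strand) and Nova1 at chr12:46818718-46819017 (minus strand), each given on its own coding strand.
Srrm4: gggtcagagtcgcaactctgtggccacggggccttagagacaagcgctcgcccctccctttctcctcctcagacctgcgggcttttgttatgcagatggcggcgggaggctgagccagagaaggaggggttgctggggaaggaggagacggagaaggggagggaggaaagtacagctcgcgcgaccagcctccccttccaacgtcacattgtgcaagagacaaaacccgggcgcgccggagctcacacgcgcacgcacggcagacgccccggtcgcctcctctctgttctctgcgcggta
Nova2: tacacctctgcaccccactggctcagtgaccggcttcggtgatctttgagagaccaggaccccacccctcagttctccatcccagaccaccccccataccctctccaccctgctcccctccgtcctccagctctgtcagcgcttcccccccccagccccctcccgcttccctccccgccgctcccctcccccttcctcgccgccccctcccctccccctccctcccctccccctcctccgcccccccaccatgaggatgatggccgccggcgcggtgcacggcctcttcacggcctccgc
Nova1: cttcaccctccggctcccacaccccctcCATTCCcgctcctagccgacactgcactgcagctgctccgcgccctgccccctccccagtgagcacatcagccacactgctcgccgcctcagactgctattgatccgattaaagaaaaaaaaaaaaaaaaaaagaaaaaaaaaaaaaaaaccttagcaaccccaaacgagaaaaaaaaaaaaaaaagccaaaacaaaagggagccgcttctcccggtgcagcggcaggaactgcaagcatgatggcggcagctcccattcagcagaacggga
TEAD factors carry YAP and TAZ to DNA. The GGAATG letters occur once in the Nova1 window and not in the windows of Srrm4 or Nova2, against 14.7% of the 32851 promoter windows of the same length, both strands counted. The CACCTG letters, an E-box of the ZEB and SNAI repressors, occur in none of the 3 windows and in 20.2% of all windows. GC content was 64.3% for Srrm4, 71.3% for Nova2 and 51.7% for Nova1, against a median of 52.7% over all windows, and the number of CG pairs was 25, 17 and 14, against a median of 7. A match or its absence in these windows does not show whether a factor binds. The table also held windows for Ptbp1, Ptbp2, Rbfox1 and Rbfox3, and Esrp1, Esrp2 and Rbfox2 were not matched.

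The 3 Rbfox genes did not differ detectably between the groups. Rbfox2 (ENSMUSG00000033565, chr15:77078990-77307004, minus strand), the broadly expressed paralog, had 108 and 104 CPM in DCKO and 53.2 and 109 CPM in Control. Control 1 stood apart as the lowest library, while Control 2 was level with both DCKO libraries. The log2 fold change was 0.39 (SE 0.34, adjusted p = 0.456 by edgeR), and without Control 1 it was -0.042. Rbfox3 (ENSMUSG00000025576, chr11:118489762-118911597, minus strand), whose protein is the NeuN antigen of mature neurons, had 6.62 and 5.38 CPM in DCKO and 7.29 and 5.29 CPM in Control. The groups overlapped. Its fitted change was -0.069 on the log2 scale (SE 0.30, adjusted p = 0.892 by edgeR). Relative to 1000 CPM of neuron markers, Rbfox3 had 6.63 and 13.7 CPM in DCKO and 5.41 and 3.2 CPM in Control, with both DCKO libraries the higher on this scale.

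Rbfox1 (ENSMUSG00000008658, chr16:5885355-7411526, plus strand), a neuronal and muscle paralog, was near the lower end of detection. It had 64 and 6 counts in DCKO, which are 1.60 and 0.162 CPM, against 82 and 81 counts in Control, which are 1.31 and 1.60 CPM. DCKO 1 was at the level of Control and DCKO 2 was far below. The log2 fold change was -0.72 (SE 0.94, adjusted p = 0.625 by edgeR). The direction turned with the DCKO library kept, being 0.14 without DCKO 2 and -3.15 without DCKO 1 (adjusted p = 0.837 and 0.0160 by edgeR, the extremes over 13 alternatives). The neuron marker sum was also lower in DCKO 2 than in DCKO 1, at 393 and 998 CPM, and its part in the Rbfox1 values was not tested. The ratio of Rbfox1 to Rbfox2 differed by -1.99 on the log2 count scale and that of Rbfox3 to Rbfox2 by -0.54, with exact two-sided permutation p of 0.667 and 1.

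By mean TPM, the polypyrimidine tract binding pair had the highest levels of the 10. By counts per kilobase of annotated exon, Rbfox2 stood at rank 2 and Ptbp2 at rank 3 in DCKO. Ptbp1 (ENSMUSG00000006498, chr10:79854427-79864771, plus strand), the repressor of neuronal exons, had 348 and 309 CPM in DCKO, against 276 and 238 CPM in Control. Its log2 fold change was 0.35 (SE 0.17, adjusted p = 0.194 by edgeR). In TPM the groups overlapped, with 201 and 215 in DCKO and 212 and 151 in Control. Ptbp1 shares 437 exon bases (9.22%) with Gm17134, 295 with E130317F20Rik and 251 with Plppr3, all on the opposite strand.

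Ptbp2 (ENSMUSG00000028134, chr3:119718742-119784466, minus strand), the paralog of young neurons, had 110 and 111 CPM in DCKO, against 163 and 151 CPM in Control. The DCKO libraries were nearly equal and both below Control. Its fitted change was -0.51 on the log2 scale (SE 0.15, adjusted p = 0.0711 by edgeR). It was called lower by DESeq2 (-0.56, adjusted p = 0.0252), as were 8.71% of all genes. It was also called lower with scaling to library totals (-0.86, edgeR adjusted p = 0.0173), which called 19.5% of all genes lower and moved their median to -0.32. The adjusted p ranged from 0.0173 to 0.380 over the 16 alternatives. In the authors' deposited table the log2 fold changes were 0.41 for Ptbp1 and -0.45 for Ptbp2, with false discovery rates of 0.226 and 0.166.

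A ratio within a library does not depend on the scaling between libraries. Ptbp2 counts per Ptbp1 count were 0.315 and 0.360 in DCKO, against 0.590 and 0.635 in Control. The TPM ratios were 0.308 and 0.306 in DCKO and 0.472 and 0.564 in Control, so Ptbp1 led in every library and by more in DCKO. The difference was -0.86 on the log2 count scale and -0.75 on the log2 TPM scale. Its exact two-sided permutation p was 0.333, the smallest possible here. In all, 5 paralog pairs were computed, and a p adjusted over them cannot fall below 0.333.

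**Figure D4:**
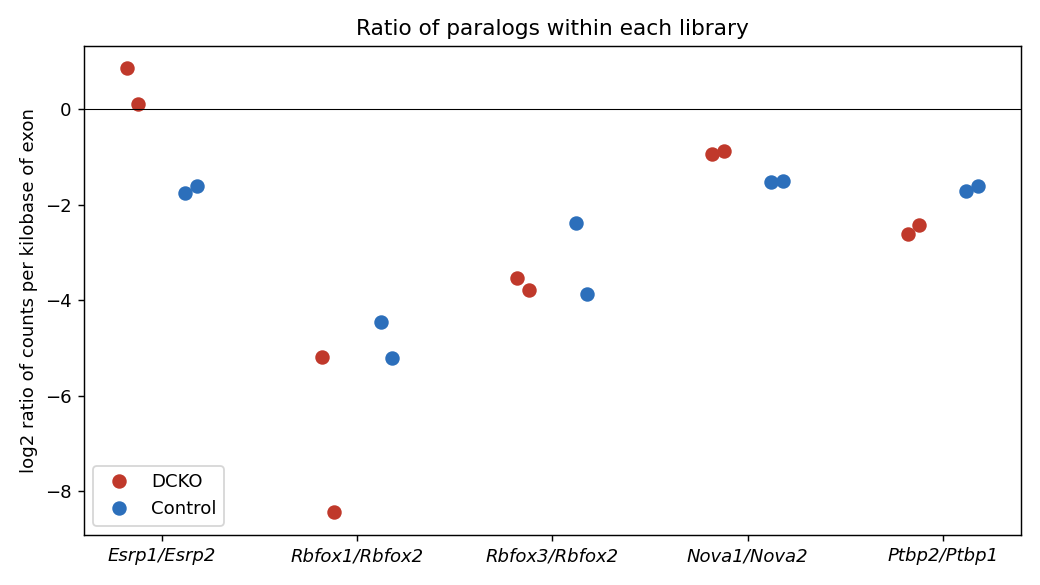
Log2 ratio of counts per kilobase of annotated exon for 5 paralog pairs (vertical axis) in each DCKO (red) and Control (blue) library. Esrp1/Esrp2 lies above 0 in both DCKO libraries and below 0 in both Control libraries, Ptbp2/Ptbp1 lies lower in DCKO, and the Rbfox pairs overlap.

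PTBP1 is known to make Ptbp2 transcripts skip a 34-base exon, which sends them to nonsense-mediated decay. The exon is shown because it links the pair. It lies at GRCm38 chr3:119724612-119724645 on the minus strand and is exon 10 of 14. Capitals mark its bases, and 20 bases of the neighbouring exons, as joined in the spliced transcript, stand on each side.
Ptbp2 exon 10: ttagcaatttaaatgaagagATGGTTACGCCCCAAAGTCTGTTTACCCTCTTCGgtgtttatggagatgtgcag
In the annotation, 3 Ptbp2 transcripts hold this exon and 3 skip it, of which 2 are classed as targets of nonsense-mediated decay. The gene totals do not show how often it was included.

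By mean TPM, the order in DCKO was Ptbp1, Ptbp2, Rbfox2, Rbfox3, Nova1, Esrp1, Nova2, Esrp2, Srrm4 and Rbfox1. In Control it was Ptbp1, Ptbp2, Rbfox2, Nova2, Srrm4, Nova1, Rbfox3, Esrp2, Rbfox1 and Esrp1. The first 3 genes held their places, with means in DCKO of 208 ± 10.2 TPM for Ptbp1, 63.8 ± 2.95 TPM for Ptbp2 and 40.4 ± 6.29 TPM for Rbfox2 (SD, n = 2). Their means in Control were 182 ± 43.0, 92.7 ± 10.5 and 30.8 ± 6.15 TPM (SD, n = 2). Below them, Esrp1 moved up to rank 6 in DCKO, against rank 10 in Control, while Srrm4 stood at rank 9 in DCKO, against rank 5 in Control. Neighbours often lay within each other's spread. In DCKO, Nova1 at 4.02 ± 0.479 TPM overlapped both of its neighbours, Rbfox3 at 4.47 ± 0.164 TPM and Esrp1 at 4.02 ± 0.239 TPM, while Rbfox3 and Esrp1 did not overlap each other. In Control, Srrm4 at 11.1 ± 0.152 and Nova1 at 10.7 ± 0.0110 TPM were close but did not overlap, and Esrp2 at 0.999 ± 0.274 and Rbfox1 at 0.904 ± 0.149 TPM overlapped. Ranking by counts per kilobase of annotated exon kept 3 of the 10 ranks in DCKO and 8 of the 10 in Control. There Rbfox2 was at rank 2 in DCKO and rank 4 in Control, behind Nova2 at rank 3 in Control.

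Other splicing regulators of restricted tissues moved in both directions. Of 26 such genes, 2 rose and 4 fell, and their log2 fold changes had a median of -0.23. Mbnl2, a muscleblind protein of differentiated tissues, rose to 55.4 and 57.6 CPM in DCKO, against 11.1 and 9.18 CPM in Control (log2 fold change 2.48, SE 0.18, adjusted p = 0.00602 by edgeR). Ptbp3, the third polypyrimidine tract binding paralog, had 72.1 and 69.7 CPM in DCKO, against 35.8 and 27.1 CPM in Control (1.17, SE 0.19, adjusted p = 0.02002 by edgeR). Both were above Control in both DCKO libraries.

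The genes that fell were neuronal or progenitor RNA-binding proteins. Elavl4 and Elavl2, which encode neuronal Hu proteins, fell by 1.73 and 1.52 on the log2 scale (adjusted p = 0.0129 and 0.0364 by edgeR). Celf3, a brain CELF protein, had 8.59 and 3.68 CPM in DCKO, against 27.4 and 34.1 CPM in Control (-2.32, SE 0.43, adjusted p = 0.0253 by edgeR). Msi1, which marks neural progenitors, had 338 and 307 CPM in DCKO, against 572 and 604 CPM in Control (-0.87, SE 0.16, adjusted p = 0.0240 by edgeR). Srrm3, the paralog of Srrm4, had 3.52 and 0.703 CPM in DCKO and 3.46 and 7.50 CPM in Control and was not called (adjusted p = 0.270 by edgeR). Rbm47, an epithelial splicing regulator, had 2.997 and 2.70 CPM in DCKO and 1.07 and 2.92 CPM in Control (adjusted p = 0.538 by edgeR). Of the 26 genes, Mbnl2 alone stayed called by edgeR without Control 1 or without Control 2, settings that called few genes of any kind. The median log2 fold change of the list was -0.32 without Control 1 and -0.29 without Control 2. It was -0.36 without DCKO 1 and -0.24 without DCKO 2. DESeq2 called 7 of the list lower, against 8.71% of all genes, and scaling to library totals 8, against 19.5%.

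General splicing factors, mostly of the SR and hnRNP families, gave 0 higher and 8 lower of 36 genes by edgeR. At an unadjusted edgeR p under 0.05, 1 was higher and 16 lower, against 6896 of all 19207 tested genes in either direction. The median log2 fold change of the 36 was -0.39. Both DCKO libraries lay below both Control libraries for 27 of the 36, against 32.9% of all tested genes. Srsf2, an SR protein that promotes exon inclusion, had 160 and 182 CPM in DCKO, against 397 and 382 CPM in Control (-1.19, SE 0.16, adjusted p = 0.0138 by edgeR). Srsf6 fell by 1.10, Hnrnpm by 0.90 and Khdrbs1, which encodes SAM68, by 0.85 on the log2 scale. The count of lower genes depended on the scaling and on the Control libraries. It was 24 under library totals, where 19.5% of all genes were lower, 13 by DESeq2 (8.71%) and 10 by limma-voom (9.01%). No gene of the 36 stayed called by edgeR without Control 1 or without Control 2, settings that called few genes of any kind. The list median was -0.33 without Control 1 and -0.48 without Control 2. Hnrnpm protein is known to oppose ESRP1 at some exons.

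**Figure D5:**
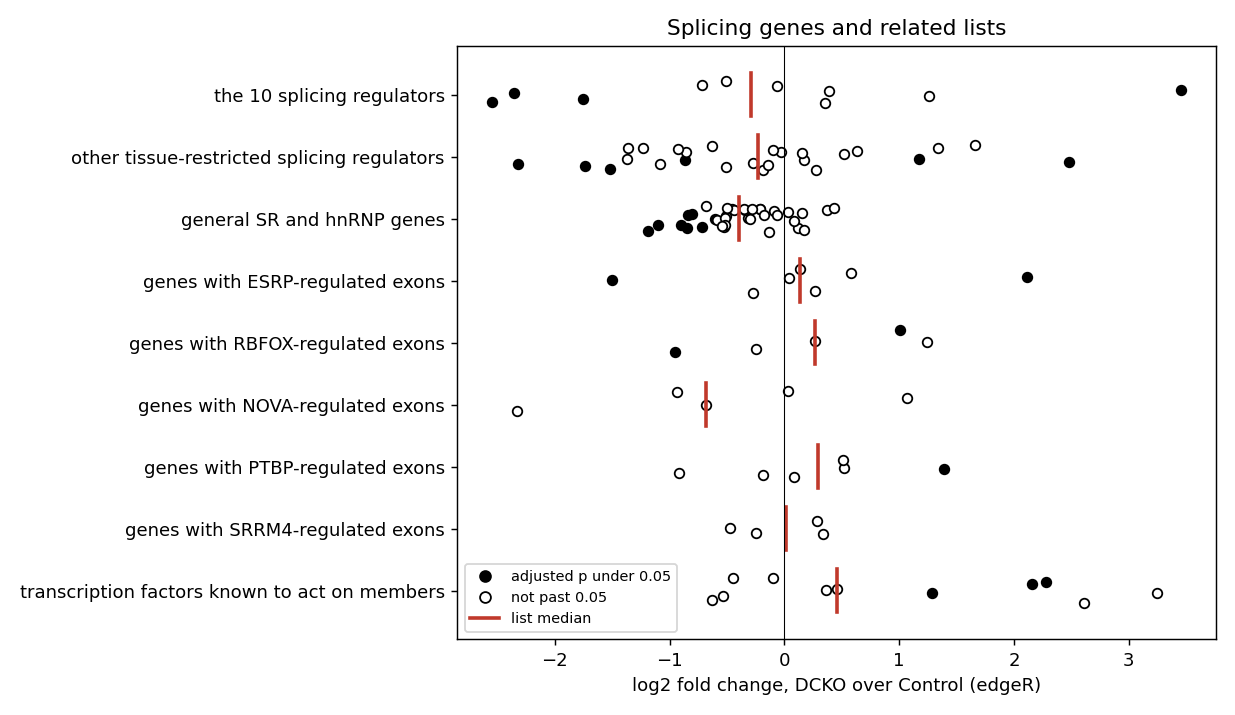
Log2 fold change of DCKO over Control (horizontal axis, edgeR) for the tested genes of each list, filled where the adjusted p was under 0.05, with the list median as a red line. Most genes of the general SR and hnRNP list lie below 0, with a list median of -0.39, and the 10 splicing regulators span from -2.55 to 3.45.

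Genes known to carry exons under these regulators were compared by gene total, which does not show exon use. Of 7 genes with ESRP-regulated exons, 1 rose and 1 fell, with a median of 0.14. Cd44, a hyaluronan receptor whose variable exons ESRP1 includes, had 32.7 and 23.5 CPM in DCKO, against 6.78 and 6.16 CPM in Control (2.12, SE 0.24, adjusted p = 0.0101 by edgeR). Scrib, a cell polarity gene, had 59.8 and 60.8 CPM in DCKO, against 167 and 175 CPM in Control (-1.51, SE 0.15, adjusted p = 0.00806 by edgeR). Of 5 genes with RBFOX-regulated exons, Mef2d rose by 1.01 and Epb41 fell by 0.95 on the log2 scale (adjusted p = 0.0240 and 0.0199 by edgeR).

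Of 6 genes with PTBP-regulated exons, 1 rose: Flna, the actin cross-linker filamin A, had 1489 and 1675 CPM in DCKO, against 579 and 626 CPM in Control (1.39, SE 0.17, adjusted p = 0.0112 by edgeR). Of 6 genes with NOVA-regulated exons, 5 were tested and 0 called by edgeR. At an unadjusted edgeR p under 0.05, which 6896 of all 19207 tested genes passed, 1 was higher and 2 lower. DESeq2 called 1 higher and 2 lower, and limma-voom 0 higher and 1 lower. Dab1, the reelin adaptor, had the smallest edgeR p, with 13.4 and 13.7 CPM in DCKO and 21.8 and 21.9 CPM in Control (adjusted p = 0.0544). Of 4 genes with SRRM4-regulated exons, 0 were called by edgeR, DESeq2 or limma-voom, with 1 lower at an unadjusted edgeR p under 0.05. That gene, Unc13b, which primes synaptic vesicles, had 33.8 and 29.3 CPM in DCKO and 40.0 and 47.8 CPM in Control (adjusted p = 0.122). Scrib alone of these 5 lists stayed called by edgeR without Control 1, and no gene did without Control 2. Both settings called few genes of any kind. With library totals, which called 19.5% of all genes lower, the NOVA list had 0 higher and 2 lower and the SRRM4 list 1 lower. With all libraries kept, the edgeR medians were 0.30 for PTBP, -0.68 for NOVA, 0.017 for SRRM4 and 0.27 for RBFOX. The NOVA median was -0.67 without DCKO 1 and -0.34 without DCKO 2.

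Of 12 transcription factors and corepressors known to act on these genes, 11 were tested, and 3 rose and 0 fell by edgeR. At an unadjusted edgeR p under 0.05, which 6896 of all 19207 tested genes passed, 5 were higher and 2 lower. DESeq2 called 4 higher and 1 lower and limma-voom 3 higher and 1 lower, and the edgeR median of their log2 fold changes was 0.45. REST silences Srrm4 and other neuronal genes outside neurons. Rest had 75.3 and 99.4 CPM in DCKO and 77.7 and 58.3 CPM in Control, and was not called (0.36, SE 0.23, adjusted p = 0.307 by edgeR). Snai1 and Snai2, zinc finger repressors of epithelial genes, rose together with Esrp1. Snai2 had 11.3 and 8.82 CPM in DCKO, against 1.85 and 2.29 CPM in Control (2.28, SE 0.30, adjusted p = 0.0132 by edgeR). Snai1 had 24.0 and 33.4 CPM in DCKO, against 11.8 and 11.8 CPM in Control (1.28, SE 0.23, adjusted p = 0.0230 by edgeR). Grhl3, a grainyhead factor of surface ectoderm, had 2.70 and 3.68 CPM in DCKO, against 0.447 and 0.987 CPM in Control (2.16, SE 0.53, adjusted p = 0.0474 by edgeR). Without Control 1 or without Control 2, 0 of the 11 were called by edgeR, with 5 and 4 higher at an unadjusted p under 0.05. Without DCKO 2 and with library totals, 2 were higher and 2 lower.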

How the data were processed

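Polyadenylated RNA, per the labels, was sequenced from 2 DCKO and 2 Control embryos with a stranded kit. The authors deposited whole-number read counts per gene, not normalized, TPM, a length-scaled transcript abundance, per gene, and a table of log2 fold changes with p-values and false discovery rates. The p-values and log2 values of the authors' deposited table are the authors' own. Per the submitters' processing notes, the tools were R 3.3.2, edgeR 3.16.5, limma 3.30.13, StringTie and TopHat2 2.1.1 and the builds mm10 and GRCm38, without roles. How counts were made and whether strand was used are not given in the sources used here.

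Counts were tested with edgeR 4.0.16 in R 4.3.3: TMM scaling, filterByExpr (minimum count 10, minimum total 15), a quasi-likelihood F test with group as the only term and 2 residual degrees of freedom, two-sided, and Benjamini-Hochberg adjustment over 19207 genes with a threshold of 0.05. TMM factors were 0.888 and 0.885 in DCKO and 1.14 and 1.12 in Control. CPM use TMM-scaled totals, and 3 counts correspond to 0.0479 to 0.0811 CPM, for counting error only. SE were taken as the log2 fold change over the root of F. Alternatives used limma 3.58.1 and DESeq2 1.42.0, other scalings and filters, log2(TPM + 1) and log2(TPM + 0.1), a replicate block and leaving out each library. The TPM ratios and the authors' deposited table were added as alternatives after seeing the data.

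The 10 genes and all lists were chosen with earlier results of these data known, so no list was tested as a set. Named genes were the 10 genes, Lats1, Lats2, Ptbp3, Srrm3, Rbm47 and Rest, up to 4 called genes in each direction of each list by smallest p-value (or the gene with the smallest p-value where none was called), and the first 3 markers of each cell type. Symbols matched 54409 of 54532 gene IDs. Gene coordinates are those of GENCODE M21 on GRCm38. The test was also run on counts simulated with its own fitted dispersions, which cannot show whether the calls in these libraries are right.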

Additional observations from a re-analysis of the deposited data

How the results depend on the processing

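Over the 16 alternatives, Srrm4 and Nova2 kept their direction and lost the call only on unfiltered log2(TPM + 1), where limma called 0 of 30682 genes, 0 higher and 0 lower, with 6446 at an unadjusted p under 0.05. Of the 10 genes, 1 was called higher as reported, but 2 with upper-quartile factors, DESeq2, limma-voom and in the authors' deposited table, and 0 on unfiltered log2(TPM + 1), where 0 were lower. Leaving out 1 library gave 0 to 2 higher and 2 to 4 lower. Over all genes, 1716 were called higher and 1558 lower as reported. Library totals gave 1219 higher and 3744 lower. DESeq2 gave 2672 lower, and filtered log2(TPM + 1) and log2(TPM + 0.1), whose medians over all genes were -0.19 and -0.21, gave 1007 and 958 higher. Leaving out 1 library gave 155 to 2619 higher and 72 to 2565 lower, the lowest without Control 2. With a lone library in a group, its spread is assumed to be that of the other group. The replicate block gave 1002 higher and 776 lower. No label pairs the embryos, and the deviations of same-numbered libraries had a correlation of -0.037 over 19207 genes in 2 pairs. Leaving out 1 library turned the sign of 6 named genes that were not called. Log2 fold changes ran from -3.15 to 0.14 for Rbfox1, -0.042 to 0.97 for Rbfox2, -0.31 to 0.17 for Rbfox3, -0.042 to 1.38 for Rbm47, -0.10 to 1.87 for Csf1r and -1.24 to 2.44 for Adgre1. Rbfox3 was also above 0 without DCKO 2 (0.069). The log2 ratio of Nova1 to Nova2, DCKO minus Control, was 1.22 in TPM and 0.61 in counts, and counts per kilobase kept 3 ranks in DCKO and 8 in Control. Of 36 other named genes called, 10 remained so without Control 1 and 6 without Control 2, 35 did so when either DCKO library was left out, and 29 with the replicate block. The cause of these shifts was not tested. Counts were lowest for Rbfox1, with 6 in DCKO 2.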
